A study of Mus musculus with 33 samples.

Results

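The 40 genes described here belong to the proximal tubule of the kidney and were chosen by their symbols: 40 of the 35349 rows of the raw count table carry one of these symbols, and all 40 were found. The choice used the symbols and no threshold on any measured value. The proximal tubule is the stretch of the nephron next to the glomerulus. Its cells take back sodium, phosphate, bicarbonate, sugar, amino acids and filtered protein from the filtrate through transporters and endocytic receptors of a brush border, secrete organic anions, make glucose and degrade peptides. In the mouse kidney these cells arise from Six2-positive progenitors of the cap mesenchyme, and the nuclear receptor Hnf4a is known to be needed for their differentiation.

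RNA sequencing was done on whole embryonic mouse kidneys at embryonic day 15.5 (E15.5), from 4 Six2 heterozygous and 4 wild-type specimens, and at E11.5, from 5 Six2 knockout, 5 Six2 heterozygous and 6 wild-type embryos. Six2 encodes a transcription factor that keeps nephron progenitors undifferentiated, heterozygous animals lack 1 of its copies, and knockouts lack both. Some E15.5 heterozygous titles carry the tag GCE, which the labels do not explain, and E11.5 heterozygous titles carry Het. Whether the heterozygotes of both stages carry the same allele is not given. The labels describe neither the allele nor the strain, nor whether a specimen is 1 animal or a pool, though E11.5 specimens are called embryos here. The p-values therefore cover only the variation seen between specimens. Knockout kidneys at E15.5 were not analysed here. Each E15.5 group held 1 female and 3 male specimens, and the E11.5 groups held 4 female and 1 male knockout, 2 and 3 heterozygous, and 4 and 2 wild-type embryos.

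The 33 libraries held 10.8 to 42.1 counts each in units of 1e+06 and were summed into 24 specimens where the labels give several runs of 1 specimen. Levels are counts per 1e+06 counts (CPM) of the scaled library, and levels compared between genes are CPM per kilobase (kb) of the deposited gene length. Six2 had 0.278 to 0.644 CPM in knockouts, 9.96 to 16.5 in heterozygotes and 19.6 to 31.7 in wild types at E11.5, and 5.84 to 6.63 CPM in heterozygous against 11.2 to 13 in wild-type kidneys at E15.5. Ribosomal RNA genes took 0.868% to 24.8% of the counts in the 9 batch 1 libraries of E11.5, and 0.202% to 0.442% in the 8 of batch 2. The summed level of the 40 genes was 132 to 183 CPM in those batch 1 libraries and 120 to 144 CPM in batch 2. Within the heterozygous embryo run in both batches it was 183 CPM in batch 1 and 137 CPM in batch 2. Batch was a term in the E11.5 model and ribosomal share was not, so its differences between genotypes within batch 1 are not adjusted for.

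Promoter sequence of the 40 genes was searched for motifs of the HNF4 factors, known regulators of this segment. RefSeq windows of 300 bases, 250 before and 50 after an annotated start (GRCm38.p6, mm10), matched 33 of the 40 genes with 44 windows. CAAAGTCCA, a core of the HNF4 site, was sought on both strands and stood in 2 of the 44 windows (4.55%), against 0.475% of all 32851 RefSeq windows. The shorter CAAAG, which it contains, stood in 30 (68.2%, against 53.9%). Such matches describe letters in these windows and were not shown to be binding sites. Both windows with the longer motif are shown, those of an amino acid transporter subunit and of a scaffold of the brush border, and capitals mark the match.
Slc3a1, chr17:85028097-85028396, plus strand: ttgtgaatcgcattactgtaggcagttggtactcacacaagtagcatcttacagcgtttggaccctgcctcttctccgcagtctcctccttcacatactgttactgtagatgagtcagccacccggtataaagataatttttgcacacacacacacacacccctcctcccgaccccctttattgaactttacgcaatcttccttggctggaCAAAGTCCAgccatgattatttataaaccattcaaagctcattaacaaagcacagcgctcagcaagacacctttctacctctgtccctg
Pdzk1, chr3:96829815-96830114, plus strand: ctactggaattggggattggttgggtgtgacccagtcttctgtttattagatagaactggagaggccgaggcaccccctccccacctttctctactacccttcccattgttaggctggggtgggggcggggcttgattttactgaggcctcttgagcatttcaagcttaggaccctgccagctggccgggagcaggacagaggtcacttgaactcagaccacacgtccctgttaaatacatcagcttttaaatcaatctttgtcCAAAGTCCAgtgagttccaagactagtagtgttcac
In Slc3a1 the match starts at -39 from the RefSeq start and in Pdzk1 at 15, counted from 1 at the start itself. The 40 genes lie on 16 chromosomes, with 11 on chromosome 2. Slc3a1 lies 0.620 megabases from Six2 on chromosome 17, which also holds Apom and Mep1a at 50.6 and 42.2 megabases.

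At E11.5 most of the list was near 0. In each knockout embryo 23 to 29 of the 40 genes had at least 1 count and 16 to 20 had more than 3, against 22 to 27 and 15 to 21 in heterozygous and 22 to 29 and 15 to 19 in wild-type embryos. For 17 genes no embryo had more than 3 counts, and these 17 gathered 70 counts over all 16 embryos. They were Slc34a1, Slc34a3, Slc9a3, Slc13a1, Slc17a1, Slc17a3, Slc22a6, Slc22a12, Slc5a12, Fbp1, G6pc, Miox, Mep1a, Mep1b, Hnf4a, Hnf4g and Spp2. A further 10 genes lay between that floor and the filter of the test, with 631 counts together: Amn, Fxyd2, Slc2a2, Slc22a8, Slc13a3, Slc6a19, Slc27a2, Pdzk1, Pck1 and Ttc36. The 13 that passed the filter held 43736 counts, and Dab2, Lrp2, Slc4a4 and Slc7a7 alone held 85.3% of the counts of all 40.

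**Figure D1:**
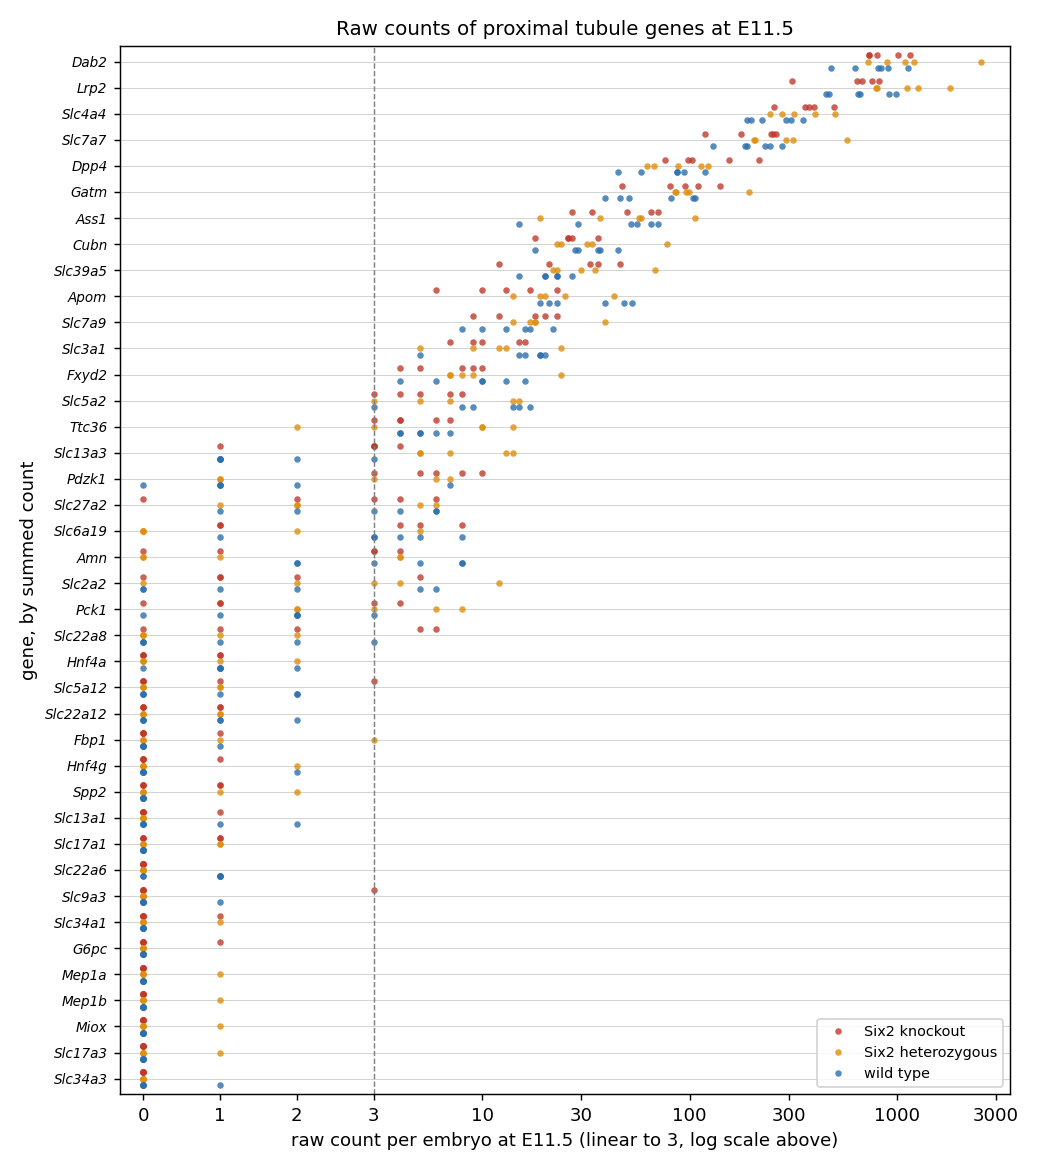
Raw count of each of the 40 genes in each E11.5 embryo (horizontal axis, linear to 3 and logarithmic above; points are embryos, coloured by Six2 genotype; the dashed line is at 3 counts). Genes run from the highest to the lowest summed count: 17 genes stay at or under 3 counts in all 16 embryos, and Dab2 and Lrp2 have at least 312 counts in every embryo.

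At E15.5 every one of the 40 genes had counts in all 8 specimens, the lowest being 16 counts of G6pc in heterozygous replicate 4. Stage was compared between wild-type kidneys at E15.5 and E11.5. The labels do not say whether both stages were sequenced together, so stage and sequencing set cannot be told apart, and in whole kidneys fewer cells of a type and less RNA per cell cannot be told apart either. In that comparison 38 of the 40 genes were called higher at E15.5 and 1 lower, beside 34.0% and 32.1% of all 17362 genes tested (edgeR quasi-likelihood test, Benjamini-Hochberg adjusted p below 0.05). Because 27 of the 40 entered it only through their E15.5 counts and had to differ, that count is not read further. Of the 13 that also passed the filter on E11.5 embryos alone, 11 were higher, 1 was lower and 1 did not pass. Their median log2 change was 2.42, while 32.7% of the 16141 genes with that property were higher, 33.6% were lower and their median was -0.02. Of 51 other proximal tubule genes, 19 passed the filter on E11.5 embryos alone, of which 17 were higher at E15.5, 1 was lower and 1 did not pass, with a median log2 difference of 1.09.

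Of the genes of protein uptake, Lrp2, Cubn and Dab2 were among the 13 that passed the E11.5 filter, and Amn was not. Lrp2 encodes megalin, the giant receptor that takes up filtered protein together with cubilin. Its raw counts at E11.5 were 312, 639, 675, 759 and 822 in knockout, 795, 804, 1121, 1254 and 1805 in heterozygous, and 452 to 988 with a median of 654.5 in wild-type embryos. At E15.5 its level was 658, 529, 475 and 370 CPM in heterozygous kidneys (replicates 1 to 4 here and below), against 469, 433, 440 and 460 CPM in wild-type kidneys. All E15.5 levels were above all E11.5 levels, whose highest was 53.8 CPM, and the wild-type log2 difference was 3.46 ± 0.13 (SE). Cubn, the cubilin gene, rose by 4.67 ± 0.18 on the same scale, and its partner Amn had 0 to 8 counts per embryo at E11.5 and 12.8 to 21.0 CPM at E15.5.

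Dab2, an adaptor that links megalin to the clathrin coat and is also expressed by macrophages, did not differ past the threshold between the stages. Its E15.5 level was 68.6, 63.6, 57.9 and 52.5 CPM in heterozygous against 56.9, 56.4, 56.4 and 62.3 CPM in wild-type kidneys. At E11.5 it had 41.0, 46.1, 57.3, 60.2 and 67.6 CPM in knockout, 33.5, 38.2, 62.4, 70.6 and 73.3 in heterozygous, and 23.1 to 66.5 with a median of 48.7 CPM in wild-type embryos. The stages overlapped, and the log2 difference of 0.20 ± 0.12 did not pass (adjusted p = 0.132). It did pass with sex left out of the model (0.29 ± 0.13, adjusted p = 0.0494) and without wild-type E11.5 replicate 5 (0.26 ± 0.11, adjusted p = 0.0430).

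Carriers of phosphate, sulfate, bicarbonate and sodium ranged from undetected to well expressed at E11.5. Slc34a1, the main phosphate cotransporter of the adult tubule, had 1 count in 1 of 5 knockout embryos, 1 count in 1 of 5 heterozygous embryos and 0 in the 6 wild-type embryos. Levels at E15.5 were 145, 115, 106 and 59.5 CPM in heterozygous kidneys against 116, 92.3, 103 and 106 CPM in wild-type kidneys. Against the floor of 3 counts over the wild-type E11.5 group, its wild-type level was at least 3625-fold higher at E15.5. Slc34a3, a second phosphate cotransporter, had 1 count in 1 wild-type embryo and 0 in every other E11.5 embryo. Its E15.5 level was 0.907, 0.932, 0.539 and 0.542 CPM in heterozygous against 0.638, 0.670, 0.459 and 0.744 CPM in wild-type kidneys, the lowest of the 40 per length. With 1 count at E11.5 the wild-type ratio was 64.8, with a counting interval of 11.5 to 2578.

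Slc4a4, the sodium bicarbonate cotransporter of the basolateral membrane, was among the 4 genes with the highest E11.5 counts and the smallest rise. It reached 49.1, 42.4, 38.3 and 30.8 CPM in heterozygous and 41.0, 33.9, 38.9 and 40.7 CPM in wild-type kidneys at E15.5, above all wild-type E11.5 levels (11.7 to 20.6 CPM), with a log2 difference of 1.31 ± 0.13. Fxyd2, the gamma subunit of the sodium pump, had 4 to 10 counts per knockout, 7 to 24 per heterozygous and 4 to 16 per wild-type embryo at E11.5. By E15.5 the level was 70.8, 57.8, 50.6 and 36.9 CPM in heterozygous against 53.2, 45.3, 49.1 and 53.7 CPM in wild-type kidneys. Per length it was the highest of the 40, at 78.9 ± 6.17 CPM per kb in wild-type kidneys (SD, n = 4). Slc9a3, the sodium-hydrogen exchanger of the brush border, Slc13a1, a sulfate carrier, and the phosphate-family carriers Slc17a1 and Slc17a3 had at most 3 counts in any embryo and 1.19 to 8.71 CPM at E15.5.

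Of the sugar transporters, Slc5a2 encodes SGLT2, which takes up most of the filtered glucose. At E11.5 it had 3, 4, 5, 7 and 8 counts in knockout, 3, 5, 7, 14 and 15 in heterozygous, and 3 to 17 with a median of 11.5 in wild-type embryos. At E15.5 it had 5.19, 4.18, 4.44 and 2.79 CPM in heterozygous against 4.34, 3.12, 3.77 and 3.26 CPM in wild-type kidneys, and the wild-type log2 difference was 2.42 ± 0.28. Slc2a2, the basolateral glucose exit carrier GLUT2, had 0 to 12 counts per embryo and 16.1 to 26.1 CPM at E15.5.

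Carriers of organic anions, urate and carboxylates were nearly undetected at E11.5. Slc22a6, the organic anion transporter OAT1, had 0 counts in all knockout and heterozygous embryos and 1 count in 4 of 6 wild-type embryos. Its E15.5 level was 38.6, 30.3, 28.6 and 14.1 CPM in heterozygous against 32.7, 20.8, 25.4 and 26.7 CPM in wild-type kidneys. Slc13a3, a dicarboxylate carrier, had 1, 3, 3, 3 and 4 counts in knockout, 5, 5, 7, 13 and 14 in heterozygous, and 1 to 3 with a median of 1 in wild-type embryos. The raw heterozygous counts, not scaled for depth, lay above both other genotypes. Slc13a3 was below the filter and was not tested between genotypes at E11.5. Levels at E15.5 were 3.89, 2.66, 2.4 and 1.13 CPM in heterozygous against 2.93, 1.59, 2.45 and 2.26 CPM in wild-type kidneys, and it stood among the 4 lowest per length. Slc22a8, Slc22a12 (the urate carrier URAT1) and Slc5a12 (a lactate carrier) had 1.35 to 16 CPM at E15.5.

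Amino acid carriers included Slc7a7, the gene of the 40 that fell between the stages. It is a basolateral carrier of cationic amino acids that macrophages express too. Slc7a7 had 9.23, 8.56, 8.83 and 8.98 CPM in heterozygous and 8.62, 7.75, 7.20 and 7.42 CPM in wild-type kidneys at E15.5. At E11.5 it had 10.5, 11, 12.5, 13.9 and 15.1 CPM in knockout, 12.0, 12.4, 13.8, 14.1 and 14.7 in heterozygous, and 10.8 to 13.4 with a median of 12.0 CPM in wild-type embryos. The stages did not overlap, and the wild-type level was lower at E15.5 by a log2 difference of -0.68 ± 0.09. The 7 macrophage markers summed to 101 to 110 CPM in wild-type kidneys at E15.5 and 64.0 to 126 CPM at E11.5, each with counts in every specimen; their part in the levels of Dab2 and Slc7a7 was not tested.

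Slc3a1, the heavy subunit of the cystine transporter, had 7, 9, 10, 15 and 16 counts in knockout, 5, 9, 12, 13 and 24 in heterozygous, and 5 to 20 with a median of 17.5 in wild-type embryos. By E15.5 the level was 10.4, 6.74, 6.46 and 3.94 CPM in heterozygous against 7.54, 7.41, 6.45 and 6.15 CPM in wild-type kidneys, a wild-type rise of 2.81 ± 0.27 on the log2 scale. Its light subunit Slc7a9 rose by 2.63 ± 0.19, to 5.17 to 5.67 CPM in wild-type kidneys. Slc6a19, a carrier of neutral amino acids, had 0 to 8 counts per embryo and 2.00 to 2.81 CPM at E15.5.

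Among the other carriers, Slc27a2, a fatty acid transporter, had 0, 2, 3, 4 and 6 counts in knockout, 1, 2, 2, 5 and 6 in heterozygous, and 1 to 6 with a median of 3.5 in wild-type embryos. At E15.5 it had 24.1, 18.7, 17.5 and 10.3 CPM in heterozygous against 19.3, 15.6, 17.8 and 17.0 CPM in wild-type kidneys. The zinc carrier Slc39a5 rose by 4.71 ± 0.15 on the log2 scale, to 32.4 to 36.2 CPM in wild-type kidneys. Pdzk1, a scaffold that holds brush-border transporters, had 0 to 10 counts per embryo and 36.1 to 61.8 CPM at E15.5.

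Metabolic enzymes ranged from at or under the floor to well detected at E11.5. Fbp1, an enzyme of glucose synthesis, had 1 count in 1 knockout embryo, 1 and 3 counts in 2 heterozygous embryos and 1 count in 1 wild-type embryo. Its E15.5 level was 16.4, 9.34, 8.32 and 3.75 CPM in heterozygous against 10.3, 8.10, 7.55 and 8.50 CPM in wild-type kidneys. G6pc, which frees glucose in the last step, had 1 count in 1 knockout embryo and 0 in every other, and 1.37, 0.932, 0.755 and 0.333 CPM in heterozygous against 0.965, 0.481, 0.567 and 0.592 CPM in wild-type kidneys. Both had E15.5 heterozygous values on either side of the wild-type range. Miox, the inositol oxygenase, had 1 count in 1 heterozygous embryo and 0 in every other, and at E15.5 0.873, 0.733, 0.539 and 0.563 CPM in heterozygous against 0.654, 0.607, 0.383 and 0.425 CPM in wild-type kidneys. Ass1, of arginine synthesis, and Gatm, of creatine synthesis, passed the E11.5 filter and rose by 2.02 ± 0.20 and 1.83 ± 0.18 on the log2 scale. Pck1 had 0 to 8 counts per embryo and 10.6 to 31.1 CPM at E15.5. Several of these enzymes are also made by the liver, and the 12 markers of liver and visceral endoderm summed to 57.9 to 129 CPM in wild-type kidneys at E15.5 and 2.50 to 21.5 CPM at E11.5. Their part in the rise was not tested.

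The brush-border peptidases included both undetected and well detected genes at E11.5. Mep1a and Mep1b, which encode the subunits of meprin, each had 1 count in 1 heterozygous embryo and 0 in all other E11.5 embryos. At E15.5 Mep1a had 109, 85.8, 78.0 and 53.1 CPM in heterozygous against 81.9, 74.5, 74.2 and 78.4 CPM in wild-type kidneys, at least 2677-fold above the wild-type floor of E11.5. Mep1b had 29.5, 21.9, 19.3 and 11.1 CPM in heterozygous against 23.5, 18.5, 20.3 and 21.1 CPM in wild-type kidneys, at least 727-fold above that floor. Dpp4, a dipeptidyl peptidase, was by contrast detected in every E11.5 embryo, with 45 to 215 counts. It had 237, 228, 221 and 193 CPM in heterozygous against 208, 206, 203 and 214 CPM in wild-type kidneys at E15.5, a wild-type rise of 5.47 ± 0.13 on the log2 scale and the largest among the 13 genes that passed the E11.5 filter.

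Hnf4a, the nuclear receptor that directs much of this programme in the tubule and the liver, had 1 count in each of 2 knockout embryos, 1 and 2 counts in 2 heterozygous embryos, and 0 to 2 with a median of 1 in wild-type embryos. Levels at E15.5 were 128, 115, 112 and 91.4 CPM in heterozygous against 110, 97.9, 101 and 104 CPM in wild-type kidneys. With 6 counts over the 6 wild-type E11.5 embryos the wild-type ratio was 1791, with a counting interval of 823 to 4880. Its relative Hnf4g stayed low, at 1.05 to 2.11 CPM at E15.5. Of 10 other regulators of the tubule 9 passed the filter on E11.5 embryos alone and 8 of these rose, including the nuclear receptor Esrrg (2.91 ± 0.14) and the transcription factor Cebpa (1.76 ± 0.22). Maf was not called (-0.16 ± 0.12, adjusted p = 0.276).

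Of the secreted and other genes, Apom, a lipid carrier that the liver makes as well, had 4.78, 4.70, 4.41 and 3.94 CPM in heterozygous against 5.58, 4.98, 5.34 and 4.77 CPM in wild-type kidneys at E15.5, and its wild-type rise of 1.35 ± 0.21 was among the 4 smallest. Spp2, a secreted phosphoprotein, had 1 count in each of 2 knockout embryos, 1 and 2 counts in 2 heterozygous embryos and 0 in the wild types. By E15.5 the level was 16.7, 12.2, 11.4 and 5.46 CPM in heterozygous against 13.1, 8.67, 11.6 and 11.1 CPM in wild-type kidneys, at least 390-fold above the wild-type floor. Ttc36 had 2 to 14 counts per embryo. It reached 28.1, 24.3, 21.9 and 14 CPM in heterozygous against 25.2, 19.1, 22.2 and 22.3 CPM in wild-type kidneys.

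**Figure D2:**
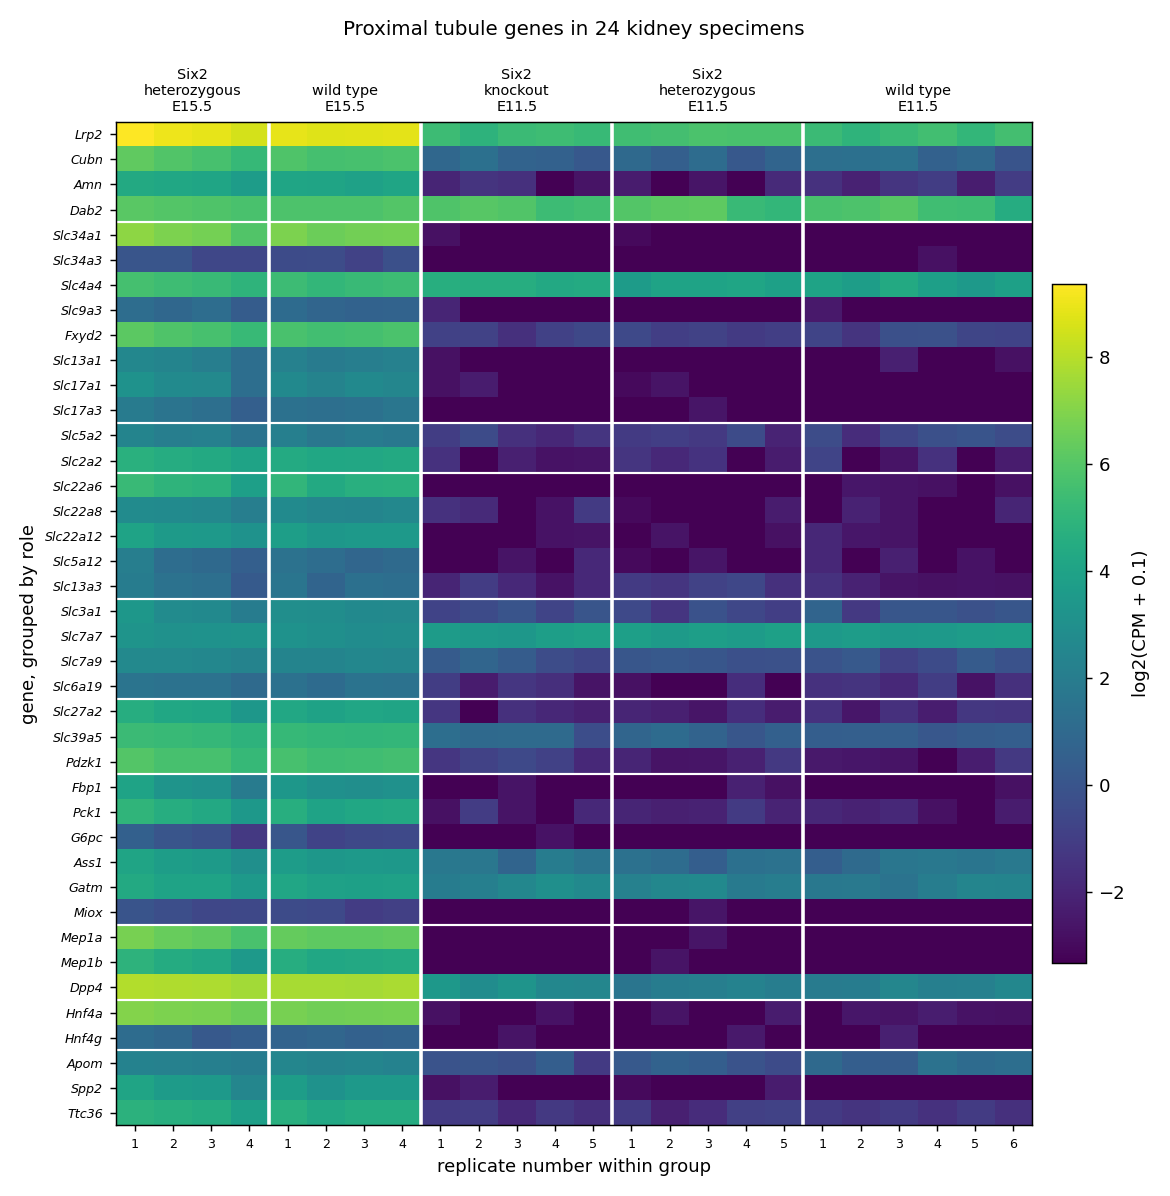
Level of each of the 40 genes (rows, grouped by role) in each of the 24 specimens (columns, by group and replicate), as log2 of CPM plus 0.1. Dab2 and Slc7a7 are near the same colour at both stages, while Slc34a1, Mep1a and Hnf4a are at the bottom of the scale in E11.5 embryos and bright in every E15.5 specimen.

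Compared per length, the 40 genes spanned from 78.9 CPM per kb for Fxyd2 to 0.265 CPM per kb for Slc34a3 in wild-type kidneys at E15.5. After Fxyd2 came Slc34a1 (33.7 ± 3.12), Dpp4 (32.7 ± 0.707) and Ttc36 (29.0 ± 3.29), whose ranges of mean ± SD overlap each other. The lowest were Slc13a3 (0.441 ± 0.106), Miox (0.312 ± 0.0804), G6pc (0.269 ± 0.0887) and Slc34a3 (0.265 ± 0.0509) (SD, n = 4 each). The ranges of mean ± SD of neighbours in this order overlap, and those of Slc13a3 and Slc34a3 do not. Unscaled, Lrp2, Dpp4 and Slc34a1 held 51.3% of the summed CPM of the list.

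Loss of both Six2 copies at E11.5 could be tested for the 13 genes that passed the filter. Slc4a4 and Dpp4 were higher and Apom was lower in knockout than in wild-type kidneys, 2 of 13 higher and 1 of 13 lower, beside 3.06% and 4.03% of all 16141 genes tested. The median log2 difference of the 13 was 0.17, against -0.00 for all genes. Of the 13 intervals of the difference, 10 lay within a 2-fold change in either direction, and the other 27 genes of the list were too low to test.

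Slc4a4 had 20.1, 21.7, 23.6, 23.7 and 24.7 CPM in knockout embryos, against 11.7 to 20.6 with a median of 14.6 CPM in wild-type embryos. The ranges met, with 1 wild-type embryo above the lowest knockout. The log2 difference was 0.58 ± 0.11 (SE, adjusted p = 0.00302), and 0.40 ± 0.11 in batch 1 alone and 0.67 ± 0.19 in batch 2 alone (adjusted p = 0.116 and 0.203). Dpp4 had 5.65, 5.78, 7.04, 9.24 and 10.7 CPM in knockout embryos, against 3.80 to 5.67 with a median of 4.43 CPM in wild-type embryos, so that only the lowest knockout fell inside the wild-type range. Its difference was 0.66 ± 0.16 (adjusted p = 0.0176), and 0.96 ± 0.23 in batch 1 and 0.33 ± 0.23 in batch 2 (adjusted p = 0.0806 and 0.637). It was not called without knockout replicate 5 (0.68 ± 0.20, adjusted p = 0.0650).

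Apom had 0.346, 0.775, 0.842, 0.927 and 1.29 CPM in knockout embryos, from 6 to 23 counts, against 1.24 to 2.63 with a median of 1.99 CPM in wild-type embryos, from 19 to 53 counts. The highest knockout stood just above the 2 lowest wild types. Its difference was -1.14 ± 0.33 (adjusted p = 0.0438), and it was called in only 9 of 25 alternative fits: in batch 1 it was -0.87 ± 0.38 and in batch 2 -1.46 ± 0.53, and without knockout replicate 5 it was -0.73 ± 0.30 (adjusted p = 0.198). All 3 calls were lost without the 6 libraries above 5% ribosomal counts, which include every wild-type library of batch 1, at 0.62 ± 0.16 for Slc4a4, 0.40 ± 0.20 for Dpp4 and -1.61 ± 0.45 for Apom. They were also lost with the title prefix, whose meaning the labels do not give, as the block in place of batch, at 0.32 ± 0.14, 0.59 ± 0.25 and -0.69 ± 0.45 (adjusted p = 0.211, 0.200 and 0.396).

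Megalin was not called. Lrp2 had 28.9, 36.8, 40.2, 40.7 and 42.6 CPM in knockout embryos, against 30.5 to 47.5 with a median of 39.4 CPM in wild-type embryos. The groups overlapped throughout, with a difference of -0.02 ± 0.11 (95% interval -0.24 to 0.19, adjusted p = 0.942). Gatm had the next largest positive difference of 0.57 ± 0.20 and did not pass (adjusted p = 0.110). Slc5a2 stood at -0.89 ± 0.43 (adjusted p = 0.267). Slc3a1, the gene of the list nearest to Six2 at 0.620 megabases, stood at -0.39 ± 0.35 (adjusted p = 0.597).

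**Figure D3:**
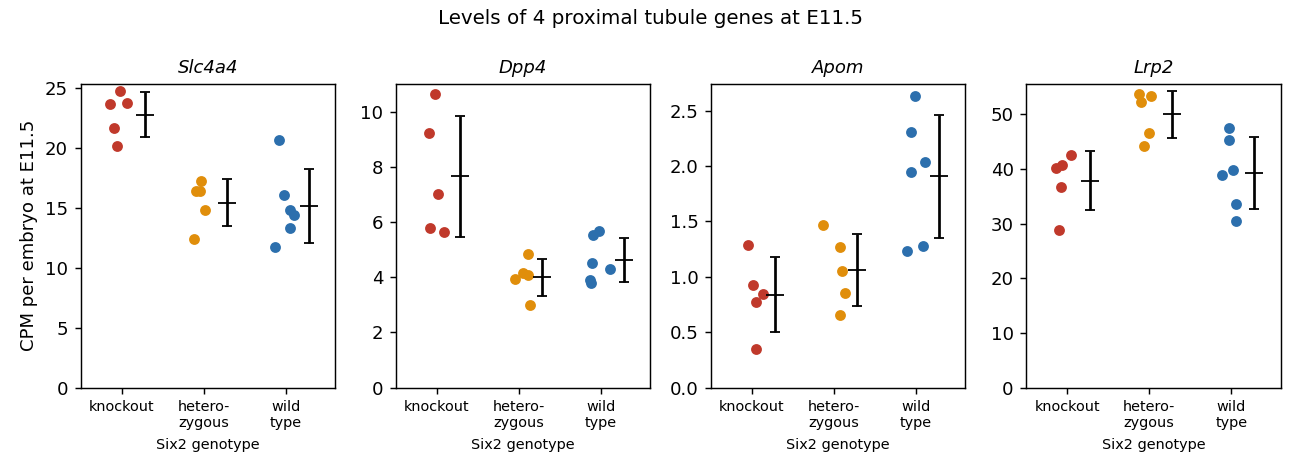
CPM (linear axes from 0) of Slc4a4, Dpp4, Apom and Lrp2 in each E11.5 embryo by Six2 genotype; points are embryos and bars the mean ± SD (n = 5 knockout, 5 heterozygous, 6 wild type). Slc4a4 and Dpp4 are highest in knockouts, Apom is highest in wild types, and Lrp2 is highest in heterozygotes.

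Other lists moved in the same knockout kidneys. Among the 51 other proximal tubule genes 19 were tested, of which the amino acid carrier Slc7a8 was higher (0.87 ± 0.18), and the carbonic anhydrase Car14 (-0.42 ± 0.10) and the aminoacylase Acy3 (-0.92 ± 0.16) were lower. Of 9 regulators tested Maf (0.54 ± 0.12) and Tfec (1.04 ± 0.28) were higher, both of which macrophages express too. All 7 macrophage markers were higher, with sums of 91.7 to 208 CPM in knockout and 64.0 to 126 CPM in wild-type embryos. Of 8 ureteric bud and collecting duct markers tested 4 were higher, with sums of 239 to 318 CPM in knockout and 136 to 258 CPM in wild-type embryos; Aqp2 had no counts in knockouts. Of 13 nephron progenitor markers 11 were lower, with sums of 501 to 627 CPM in knockout and 1092 to 1581 CPM in wild-type embryos. The part of these lists in the levels of Slc4a4, Dpp4 and Apom was not tested.

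Against heterozygous embryos, Dpp4 (0.80 ± 0.18, adjusted p = 0.0172) and Slc4a4 (0.51 ± 0.12, adjusted p = 0.0222) were again higher in knockouts, 2 of 13 higher and 0 lower, beside 0.892% and 2.79% of all genes; both comparisons share the knockout embryos. Dpp4 had 2.99, 3.93, 4.10, 4.15 and 4.85 CPM in heterozygous embryos and Slc4a4 12.4, 14.8, 16.4, 16.4 and 17.2 CPM, with no overlap with the knockouts in either gene. Neither was called in 1 batch alone, and for Slc4a4 the batch 1 difference was 0.10 ± 0.18 (adjusted p = 0.858). With the title prefix as block both calls were lost, at 0.73 ± 0.29 for Dpp4 and 0.21 ± 0.16 for Slc4a4 (adjusted p = 0.138 and 0.412), and Dab2, named here after its values were seen, was called lower (-0.93 ± 0.17, adjusted p = 0.0194), where with batch its difference was 0.07 ± 0.14 (adjusted p = 0.820). Knockouts and heterozygotes share only 1 prefix. Of these genotypes it holds knockout replicate 4, run in batch 2, and heterozygous replicates 2 and 3, run in batch 1. The prefix fit has no batch term, so batch and genotype cannot be told apart within that prefix, and its Dab2 call is not read further. Without heterozygous replicate 5, or without knockout replicate 5, no gene of the list was called. Lrp2 had 44.3, 46.6, 52.2, 53.4 and 53.8 CPM in heterozygous embryos, above every knockout, and its difference of -0.39 ± 0.12 did not pass (adjusted p = 0.0825).

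Loss of 1 copy at E11.5 gave no call among the 13 genes with edgeR or DESeq2 (in edgeR, 1 higher and 2 lower at an unadjusted p below 0.05), beside 0.0124% higher and 0.0558% lower of all genes. Lrp2 stood highest, at 0.37 ± 0.11 (adjusted p = 0.486), and Apom lowest, with 0.652, 0.852, 1.05, 1.27 and 1.47 CPM in heterozygous embryos and a difference of -0.89 ± 0.31 (adjusted p = 0.527). The median of the 13 was 0.07, against 0.01 for all genes.

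At E15.5 none of the 40 genes was called between heterozygous and wild-type kidneys by edgeR or by DESeq2, beside, in edgeR, 0.208% higher and 0.362% lower of the 18244 genes tested. At an unadjusted p below 0.05 there were 1 higher, Slc7a7 (0.19 ± 0.06, adjusted p = 0.378), and 1 lower, Apom (-0.23 ± 0.07, adjusted p = 0.346). The median difference was 0.05, against 0.00 for all genes. All 40 normal 95% intervals lay within a 2-fold change in either direction and 36 within 1.5-fold, the others being Slc34a3, Slc5a12, G6pc and Miox. For Lrp2 the interval was -0.05 to 0.33, for Slc34a1 -0.27 to 0.22 and for Hnf4a -0.000949 to 0.20. All these intervals come from the model with a sex term. Heterozygous replicate 4 was the only female heterozygote and had the lowest summed level, so that term can take up part of the spread. Intervals without the sex term are not given here. Of the other proximal tubule genes 0 of 46 were called and of the regulators 0 of 10. The heterozygous effect at E15.5 minus that at E11.5 can be read for the 13 genes that passed the filter at E11.5, and none was called with edgeR or DESeq2 (in edgeR, 2 higher and 0 lower at an unadjusted p below 0.05), beside 0% higher and 0.00576% lower of all genes. For 10 of the 13 the 95% interval of that difference lay within 2-fold, and the other 27 genes had too few E11.5 counts to give a heterozygous effect there.

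The list varied widely among the heterozygous E15.5 kidneys. The summed level of the 40 genes was 2007, 1674, 1541 and 1158 CPM in heterozygous kidneys, against 1577, 1400, 1447 and 1516 CPM in wild-type kidneys. Heterozygous replicate 1 lay above and replicate 4 below all wild types, and the means were 1595 ± 351 and 1485 ± 77.9 CPM (SD, n = 4 each). For 38 of the 40 genes the coefficient of variation was larger among heterozygous kidneys, with medians of 26.8% in heterozygous and 9.80% in wild-type kidneys. Over all 18244 genes tested it was larger among heterozygous kidneys for 56.3%, with medians of 5.51% and 4.84%. Both sequencing runs gave the same picture, with 1996 and 1982 CPM in heterozygous replicate 1 and 1162 and 1165 CPM in replicate 4.

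Nearly the whole list took the same order. Replicate 1 had the highest heterozygous level in 38 of 40 genes and replicate 4 the lowest in 36 of 40, where replicate 1 was highest in 32.0% and replicate 4 lowest in 32.7% of all genes. Replicate 1 exceeded replicate 4 by a median of 1.87 times, from 1.03 times for Slc7a7 to 4.37 times for Fbp1. The size differed by gene: Hnf4a, Dpp4 and Dab2 differed by 1.4, 1.23 and 1.31 times, and Slc34a1, Slc22a6 and Mep1b by 2.44, 2.75 and 2.66 times. In wild-type kidneys replicate 1 was highest in 32 and replicate 2 lowest in 25 of 40, beside 25.2% and 24.8% of all genes, with a median ratio of 1.18.

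**Figure D4:**
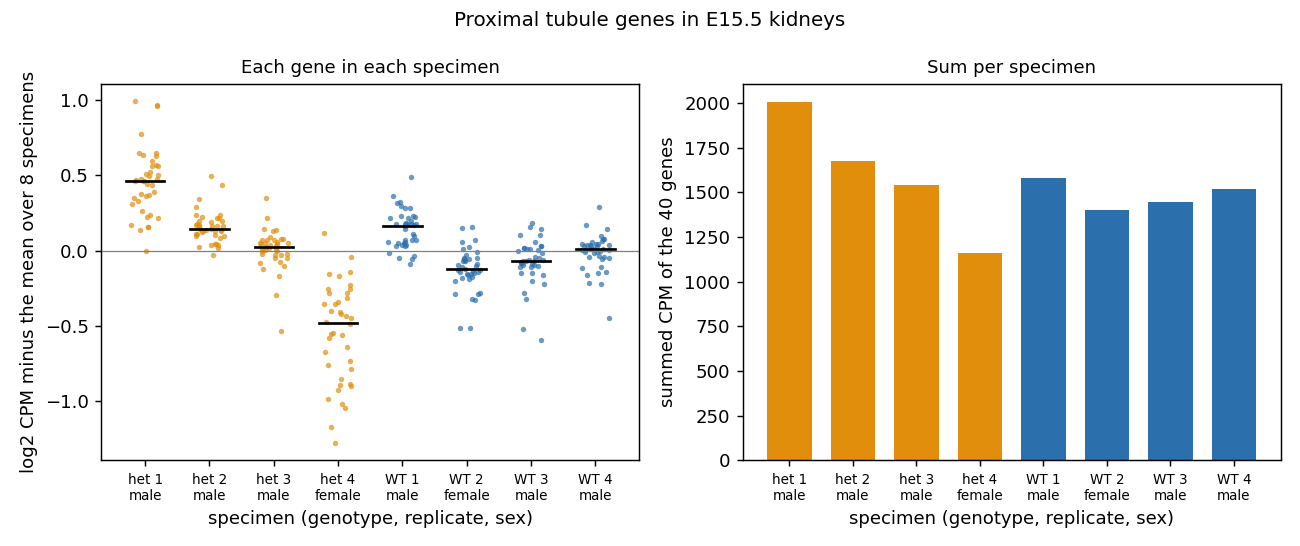
Left, log2 CPM of each of the 40 genes in each E15.5 specimen minus the gene's mean over the 8 specimens (points are genes, lines medians); right, the summed CPM of the 40 genes per specimen (bars from 0). Heterozygous replicate 1 has a median of 0.46 and heterozygous replicate 4 of -0.48, and the wild-type medians lie between -0.12 and 0.17.

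Summed levels of the other lists in these kidneys were as follows. The 51 other proximal tubule genes summed to 1562 CPM in heterozygous replicate 1 and 1028 CPM in replicate 4, and the 10 regulators to 172 and 146 CPM. Markers of the loop of Henle and distal tubule summed to 539 and 493 CPM, podocyte markers to 506 and 441 CPM, ureteric markers to 732 and 650 CPM and early nephron markers to 1580 and 1574 CPM. Nephron progenitor markers summed to 1164 CPM in replicate 1 and 1247 CPM in replicate 4. The part of these differences in the spread of the 40 genes was not tested.

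Replicate 4 was the only female heterozygous kidney and wild-type replicate 2 the only female wild type, so the sex term of the E15.5 model was examined after these values were seen. Between 2 female and 6 male kidneys no gene of the list was called (edgeR), beside 0.0439% higher and 0.0767% lower of all genes. At an unadjusted p below 0.05, 32 of the 40 were lower in females, as were 1095 of the 18244 genes tested, and the median difference was -0.39, against -0.00 for all genes. The result rests on heterozygous replicate 4. Without it 6 genes were lower at that level and the median was -0.15, and the median was -0.69 without wild-type replicate 2. In that fit replicate 4 is the only female and is assumed to vary like the other kidneys, so its calls restate the levels of replicate 4. With 1 female in each genotype, sex and the individual kidney cannot be told apart.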

How the data were processed

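Snap-frozen whole kidneys were sequenced as Illumina libraries. The authors deposited raw counts for 35349 gene symbols in 33 libraries, beside a gene length column. The tools STAR 2.4.0h1 and featureCounts 1.4.6 and the build mm10 are named per the submitters' processing notes. The annotation used for counting and the strand setting are not given in the sources used here, so reads of overlapping genes cannot be told apart.

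Runs of 1 specimen were summed to 24 specimens: at E15.5 by technical replicate number, at E11.5 for 1 heterozygous embryo with the same title but for its replicate number. At E11.5 that number equals the batch, so batch is the replicate block. Counts were tested with edgeR 4.0.16 (R 4.3.3, limma 3.58.1): filterByExpr with the groups (minimum count 10, total 15), TMM scaling, quasi-likelihood F test, Benjamini-Hochberg at 0.05 over all genes tested. A standard error is the log2 difference divided by the square root of F. Terms were genotype, sex and batch at E11.5, genotype and sex at E15.5, and the stage comparison used all 24 specimens in 1 model. The procedure was tested on simulated counts. Alternatives were DESeq2 1.42.0, relative log expression scaling, no filter, sex or batch left out, single batches, single specimens left out, libraries above 5% ribosomal counts left out, and the title prefix as block. A gene with 3 or fewer counts is called at or under the floor; counting intervals are 95% and cover counting error only. Positions come from GENCODE vM21. Genes given in every specimen are those called between genotypes, 1 lead gene per role, and the extremes of level, of stage difference and of E11.5 count. The 40 genes and the 15 lists beside them (176 genes, 2 of them missing from the table) were chosen with earlier results of these data known. Some results are not reported here.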

Additional observations from a re-analysis of the deposited data

Results flagged for a closer look

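In wild-type E15.5 replicate 4, Dab2 stood at 62.3 CPM, apart from the 3 other wild-type kidneys at 56.4 to 56.9 CPM. In knockout E11.5 replicate 5, Slc39a5 stood at 0.691 CPM, apart from the 4 other knockout embryos at 1.95 to 2.28 CPM. Both were picked out because 1 specimen lay far from the rest of its group, among 118 combinations of gene and group examined, and chance alone gives about 1 in 20.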

How the results depend on the processing

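The number of the 40 genes called in knockout against wild-type embryos was 3, and 0 in batch 1 alone, in batch 2 alone, with the title prefix as block and without the libraries above 5% ribosomal counts. Leaving out 1 embryo gave 1 to 3 calls, the lowest without knockout replicate 5. Against heterozygous embryos it was 2, and 0 in either batch alone and without those libraries, 1 with no replicate block, 1 (lower, in place of 2 higher) with the title prefix, and 0 to 2 when 1 embryo was left out, with 0 without heterozygous or knockout replicate 5. The replicate block, batch at E11.5, is in the model; with no replicate block knockout against wild type gave 2 calls, and the counts for stage, for heterozygous embryos at E11.5 and for the difference of the heterozygous effects stayed at 39, 0 and 0. Over all genes, calls against wild type were 1144, and 439 with no replicate block, 265 and 168 in the single batches, 492 with the title prefix and 349 without the libraries rich in ribosomal counts; fewer embryos enter the last and the single-batch fits. The title prefix fit has no batch term, and knockout replicates 2, 3 and 5 share their prefix with no other genotype. The near-zero difference of Lrp2 in knockouts turned sign to 0.14 with the title prefix and ranged from -0.084 to 0.041 when 1 embryo was left out. Against heterozygous embryos Lrp2 passed with DESeq2 (-0.41 ± 0.12, adjusted p = 0.0178) and with no filter (-0.40 ± 0.10, adjusted p = 0.0273). Stage calls numbered 37 to 40 in 32 alternatives, and heterozygous calls stayed at 0 in 25 alternatives at E11.5 and 14 at E15.5, DESeq2 among them. Female against male calls ranged from 0 to 10 when 1 kidney was left out, the highest without wild-type replicate 2, which leaves 1 female kidney, assumed to vary like the others. Summed wild-type E15.5 level was 1485 CPM, and 1519 CPM with unscaled totals. Causes of these changes were not tested. Depth limits the 27 genes too low to test at E11.5, where 0 counts in a library allow up to 3.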

Other observations

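Other lists also differed between the stages, counted over the markers that passed the filter on E11.5 embryos alone. In wild-type kidneys 13 of 13 early nephron markers were higher at E15.5 than at E11.5, with a median log2 difference of 1.56. Also higher were 3 of 4 genes of the loop of Henle and distal tubule list, Cldn19, Sim1 and Calb1 (median 1.94, Wnk4 lower). So were 4 of 5 podocyte markers (median 1.1, 1 lower) and 7 of 8 ureteric bud and collecting duct markers (median 0.83). Of 8 helpers of receptor endocytosis 4 were higher and 4 did not pass, with a median of 0.27. Of 13 nephron progenitor markers 3 were higher and 6 lower. Erythroid markers fell in 5 of 6 cases, with summed levels of 191 to 226 CPM in wild-type kidneys at E15.5 and 1679 to 7251 CPM at E11.5. Of the remaining lists, 6 of 7 endothelial markers were higher, 1 stromal marker of 6 was higher and 3 lower, 2 of 5 adrenal and gonad markers were lower, 2 of 4 liver and visceral endoderm markers were higher, 2 of 7 macrophage markers were higher and 2 lower, and the 1 gut marker was not called.

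In knockout against wild-type embryos 4 of 13 early nephron markers tested were higher (Cdh6, Wnt4, Pax8 and Ccnd1). So were Calb1 and Sim1, 2 of the 4 genes tested from the loop and distal list, and the stromal gene Tbx18. Umod, Slc12a1, Slc12a3, Kcnj1 and Cldn16 of the loop and distal list were too low to test. Whether Calb1 and Sim1 stand for that segment at E11.5 was not tested. Mc2r of the adrenal list was lower. None of the 8 endocytic helpers, 5 podocyte, 4 liver, 1 gut, 7 endothelial or 6 erythroid markers tested was called.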
